A study of Mus musculus with 23 samples.

Results

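The 9 genes described here encode enzymes that make serine and carry its one-carbon unit through folate in mouse cells. They are Phgdh, Psat1 and Psph of serine synthesis, Shmt1 and Shmt2 of serine cleavage, and Mthfd1, Mthfd1l, Mthfd2 and Aldh1l2 of folate interconversion. They were chosen by name as the genes with a probe set annotated to that symbol alone, and each of the 9 had exactly 1 such probe set, among 19937 genes on the array. Expression was measured on 23 Affymetrix arrays in 9 groups of sorted mouse bone marrow cells. Values are deposited log2 expression levels made with RMA, a method that brings arrays to a shared distribution, so levels are compared below within a gene and never between genes.

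The study set cells lacking C/EBPa, a transcription factor needed for myeloid progenitors to become granulocyte-macrophage progenitors, against control cells, with and without the leukaemia oncogene MLL-AF9. Knockout (KO) cells came from Mx.1-Cre+ C/EBPa f/f mice and control cells from Mx.1-Cre- C/EBPa f/f mice. The Mx.1 promoter drives Cre in interferon-responsive cells, and both genotypes received 3 injections of poly I:C, which induces it. KO leukaemic GMPs (L-GMPs) were sorted from 1 primary recipient and 2 secondary transplants of that same leukaemia, so the 3 KO L-GMP arrays stand for 1 leukaemia. That recipient of KO cells with MLL-AF9 had been given vectors expressing IL-3 and GM-CSF. Control L-GMPs were profiled on 2 arrays from primary and 2 from secondary recipients of control cells carrying MLL-AF9. MLL-AF9 KO progenitors without leukaemia comprised 3 arrays of GFP+ common myeloid progenitors (CMPs) and 2 arrays of GFP+ KSLs, the Sca-1+ c-kit+ fraction of lineage-negative marrow, which is enriched for stem cells, with both KSL samples taken from mice that also gave a CMP sample. All cells with MLL-AF9 were descended from sorted KSLs or CMPs that were cultured with IL-3 at 10 ng/ml and with thrombopoietin and stem cell factor each at 100 ng/ml, given a retrovirus coding for MLL-AF9 and GFP, and grown in lethally irradiated recipients. Untransduced marrow gave 4 arrays of KO CMPs, 3 of control GMPs and 4 of control CMPs, collected 5 days after the injections. Ages were not given in the labels. Labels do not state which control L-GMP arrays come from separate leukaemias, and p-values then measure only the spread between these samples.

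De novo serine synthesis starts from a glycolytic intermediate. Phgdh oxidises it in the committed step, Psat1 transaminates the product and Psph removes the phosphate. Shmt2 in mitochondria and Shmt1 in the cytosol split serine into glycine and a one-carbon unit on tetrahydrofolate. Mitochondrial Mthfd2 and Mthfd1l then turn that unit into formate, cytosolic Mthfd1 takes formate back up for purine and thymidylate synthesis, and mitochondrial Aldh1l2 burns the formyl group to carbon dioxide with production of NADPH. In many mammalian cells the transcription factor ATF4 activates several of these genes when amino acids are short, and proliferating cells, blood progenitors among them, draw on the pathway for nucleotides.

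Promoter sequence was available from the RefSeq tables for 8 of the 9 genes, all but Aldh1l2, on the GRCm38.p6 build. The 250 bases before the start site are shown for Phgdh, which was called in the most comparisons, and for Psat1 and Shmt2, whose levels ran most alike. Each is written 5′ to 3′ on the gene's own strand, which is the minus strand for all of them, with matches to the letters CCAAT in capitals. The Psat1 window belongs to the first of 2 listed start sites. The windows are chr3:98339970-98340219 for Phgdh, chr19:15925060-15925309 for Psat1 and chr10:127522445-127522694 for Shmt2.
Phgdh: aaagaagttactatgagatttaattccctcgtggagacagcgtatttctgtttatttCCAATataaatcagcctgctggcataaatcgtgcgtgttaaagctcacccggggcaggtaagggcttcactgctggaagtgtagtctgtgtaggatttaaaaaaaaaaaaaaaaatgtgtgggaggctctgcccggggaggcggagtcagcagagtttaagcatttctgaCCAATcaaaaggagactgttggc
Psat1: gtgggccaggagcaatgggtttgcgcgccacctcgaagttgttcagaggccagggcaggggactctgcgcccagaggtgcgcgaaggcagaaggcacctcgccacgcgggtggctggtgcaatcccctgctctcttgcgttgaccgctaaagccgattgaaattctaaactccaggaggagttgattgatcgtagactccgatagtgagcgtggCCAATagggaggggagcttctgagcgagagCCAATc
Shmt2: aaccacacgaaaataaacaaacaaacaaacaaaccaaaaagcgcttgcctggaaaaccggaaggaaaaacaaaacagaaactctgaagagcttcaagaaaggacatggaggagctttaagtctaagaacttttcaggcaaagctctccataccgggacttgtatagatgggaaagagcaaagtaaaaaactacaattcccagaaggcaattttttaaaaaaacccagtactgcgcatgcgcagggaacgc
The Phgdh window holds CCAAT beginning at bases -193 and -23 from the start site, the Psat1 window holds it at bases -36 and -6, and the Shmt2 window holds none. The motifs below were searched on both strands from 250 bases before to 50 after each start site, and the matches are a description, not binding sites. The C/EBP-ATF element core, TGATGNAA, was found in 0 of the 8 genes, against 4.51% of 27025 genes with a listed promoter. The E-box CACGTG was also found in 0 of 8, against 8.09% of all genes. With only 8 genes, 0 is close to both shares and does not set the enzymes apart from all genes. CCAAT occurred in 6 of 8 against 41.1%, and the GC box GGGCGG in 5 of 8 against 38.2%. The CCAAT and GC boxes were added to the search after the data had been seen. Among 21 genes of a list of ATF4 amino acid response genes with a promoter entry, 9 held the TGATGNAA core in this window.

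Cebpa itself checked the genotypes: its mean level lay between 4.61 and 5.31 in the KO groups and between 7.36 and 7.82 in the control groups. The gate genes matched the labels in part. Fcgr3, which encodes the Fc receptor used to separate GMPs from CMPs, averaged 9.51 to 10.12 in the L-GMP groups and 9.69 in control GMPs, against 7.90 in control CMPs. It also reached 8.87 on 1 MLL-AF9 KO KSL array and 5.63 on the other. The 5 MLL-AF9 KO progenitor arrays were unlike in lineage markers, with list means of 5.40 to 8.405 for mast cell, basophil and eosinophil genes. Ly6a, which encodes Sca-1, was not analysed here. Between 2952 and 3379 of 34760 probe sets per array stood at the deposited floor of 3, and none of the 9 enzymes did on any array. The number of arrays limits the precision. In these bulk samples, fewer cells of a type and less RNA per cell cannot be told apart. Groups with MLL-AF9 were cultured and transplanted and untransduced groups were collected from marrow, so cell state and handling cannot be told apart between them. The labels used here do not say which groups were processed together, so cell state and batch cannot be told apart either.

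Phgdh was highest in MLL-AF9 KO CMPs and lowest in secondary control L-GMPs, a range of 1.25 on the log2 scale between group means. The KO L-GMP arrays read 6.55 and 6.66 after secondary transplant and 6.66 in the primary recipient. Control L-GMPs read 6.18 and 6.44 in secondary and 6.98 and 6.99 in primary recipients. Among MLL-AF9 KO cells without leukaemia, the levels were 8.07, 7.53 and 7.09 on the CMP arrays and 7.62 and 7.15 on the KSL arrays. All leukaemic arrays thus lay below all of these. Untransduced KO CMPs split into 6.57 and 6.59 against 7.09 and 7.10, while control GMPs, at 7.18, 7.22 and 7.20, and control CMPs, at 7.34, 7.29, 7.35 and 7.48, were tight. With the 9 groups ordered by mean, 4 of the 8 neighbouring pairs did not overlap: control GMPs and control CMPs, primary control L-GMPs and control GMPs, secondary KO and secondary control L-GMPs, and secondary and primary KO L-GMPs, the last by a margin lost in rounding. A second probe set, annotated to both Phgdh and Gm6756 and therefore kept out of the tests, did not show this separation. It averaged 6.81 in secondary and 7.08 in primary KO L-GMPs, and 6.98 in secondary and 7.70 in primary control L-GMPs, where 1 array read 8.26 and the other 7.13. It averaged 7.76 in MLL-AF9 KO CMPs (6.96 to 8.18), 7.67 in MLL-AF9 KO KSLs, 7.28 in KO CMPs, 7.45 in control GMPs and 7.72 in control CMPs. By that probe set primary control L-GMPs thus lay on both sides of control GMPs and overlapped MLL-AF9 KO CMPs.

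Psat1 and Psph, the next enzymes of serine synthesis, followed other orders. Psat1 was highest in control GMPs, at 8.69, 8.54 and 8.52, and in control CMPs, at 8.36 to 8.64. It was lowest in MLL-AF9 KO KSLs, at 7.04 and 7.89, and 0 of its 8 neighbouring pairs were free of overlap. Psph was highest in secondary control L-GMPs, at 8.01 and 8.10, and lowest in KO CMPs, at 6.55, 6.60, 6.80 and 6.74. Both of these groups stood clear of their neighbour, and the other 6 neighbouring pairs of Psph overlapped. Across the 9 group means, Psat1 and Psph had a correlation of -0.71, so these neighbouring steps did not share an order of levels.

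**Figure D1:**
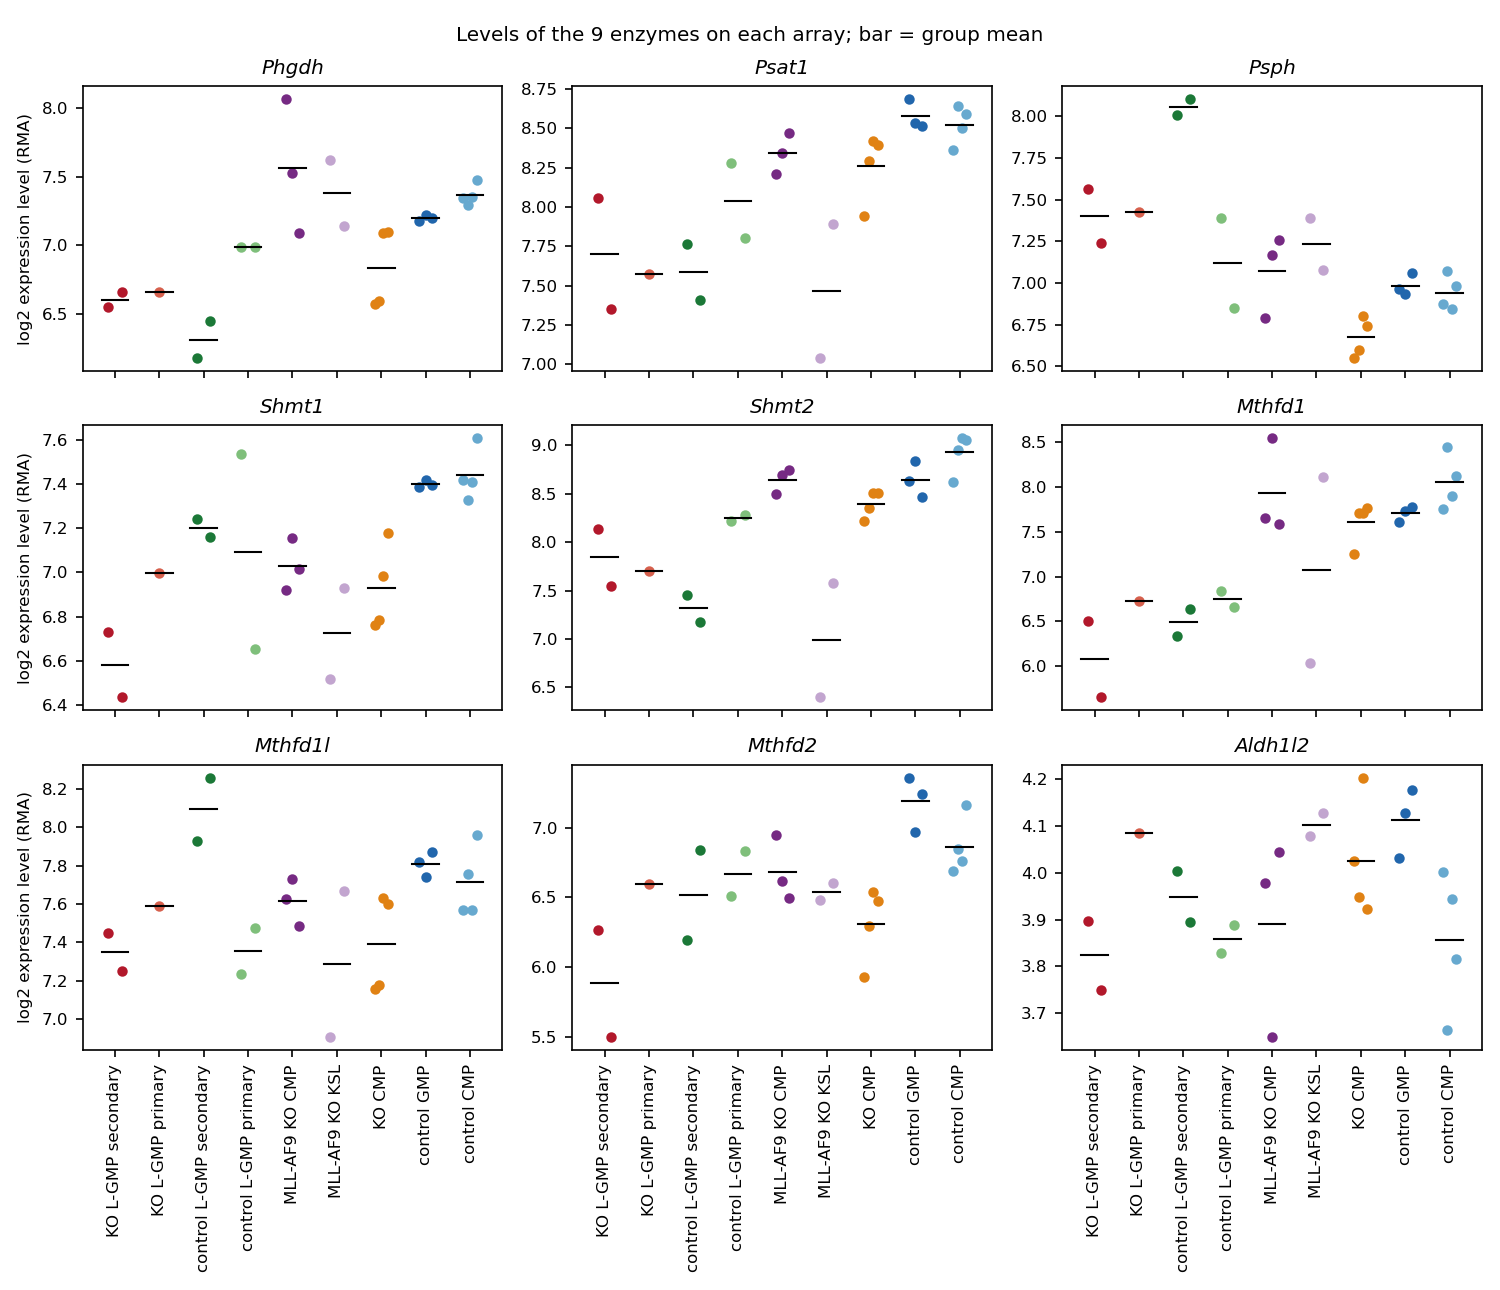
Log2 expression level of each enzyme (vertical axis) on every array (points) in the 9 groups (horizontal axis), with bars at group means; vertical scales differ between panels. Phgdh tops out in MLL-AF9 KO CMPs, Psph in secondary control L-GMPs at 8.01 and 8.10, and Shmt2 has its lowest point, 6.40, on a MLL-AF9 KO KSL array.

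Of the serine-splitting enzymes, mitochondrial Shmt2 spanned 1.94 between its highest and lowest group means, wider than 94.15% of all genes, whose median span was 0.69. Control CMPs were highest, at 8.62, 8.95, 9.07 and 9.06, and MLL-AF9 KO KSLs were lowest, at 6.40 and 7.58. Cytosolic Shmt1 spanned 0.86, with its highest means in control GMPs (7.39 to 7.42) and control CMPs (7.33 to 7.61) and its lowest in secondary KO L-GMPs, at 6.73 and 6.43.

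Among the folate enzymes, Mthfd1 had the widest span of the 9, at 1.97. It was highest in control CMPs, at 7.75, 8.44, 7.89 and 8.11, and lowest in secondary KO L-GMPs, at 6.51 and 5.66. Its MLL-AF9 KO KSL arrays read 6.04 and 8.11, a gap wider than the span of all group means. Mthfd2 spanned 1.30, being lowest in secondary KO L-GMPs, at 6.27 and 5.50, and highest in control GMPs, at 7.36, 6.97 and 7.24. Mthfd1l spanned 0.80 and, like Psph, was highest in secondary control L-GMPs, at 7.93 and 8.26, clear of the next group. Aldh1l2 spanned 0.29, wider than only 9.79% of genes, and stayed between 3.65 and 4.20 on all arrays, close to the floor of 3.

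Psat1 and Shmt2 ran most alike of the 36 pairs of enzymes, with a correlation of 0.952 over the 9 group means and 0.929 over the 23 arrays. The correlation was 0.831 between deviations from the group means and 0.911 over the 21 arrays without the MLL-AF9 KO KSLs, where both genes were lowest. The arrays share their hybridisation and normalisation, so these are descriptions. Psat1, Shmt2 and Mthfd1 also correlated with the mean level of 18 proliferation genes over the 23 arrays, at 0.84, 0.793 and 0.737. Shmt1 (0.723) and Mthfd2 (0.561) did so too, while Mthfd1l had 0.384, Phgdh 0.205, Aldh1l2 0.106 and Psph -0.505. Among 5760 genes whose group means spanned at least 1 on the log2 scale, those nearest Shmt2 over the 9 group means were Tspan14 (correlation 0.989), G6pc3 (0.976) and Nop16 (0.974). Nearest Psat1 were H4c6 (0.980), Wdr55 (0.979) and H4c14 (0.978). Phgdh was matched most closely by Rpp38 (0.976) and Mthfd1 by Btbd3 (0.985). Each was picked as the highest of 5760 over 9 means, so high values follow from the search. Over the 23 arrays, Rpp38 had 0.687 and Btbd3 0.781, and the genes named for Shmt2 and Psat1 had 0.839 to 0.913.

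**Figure D2:**
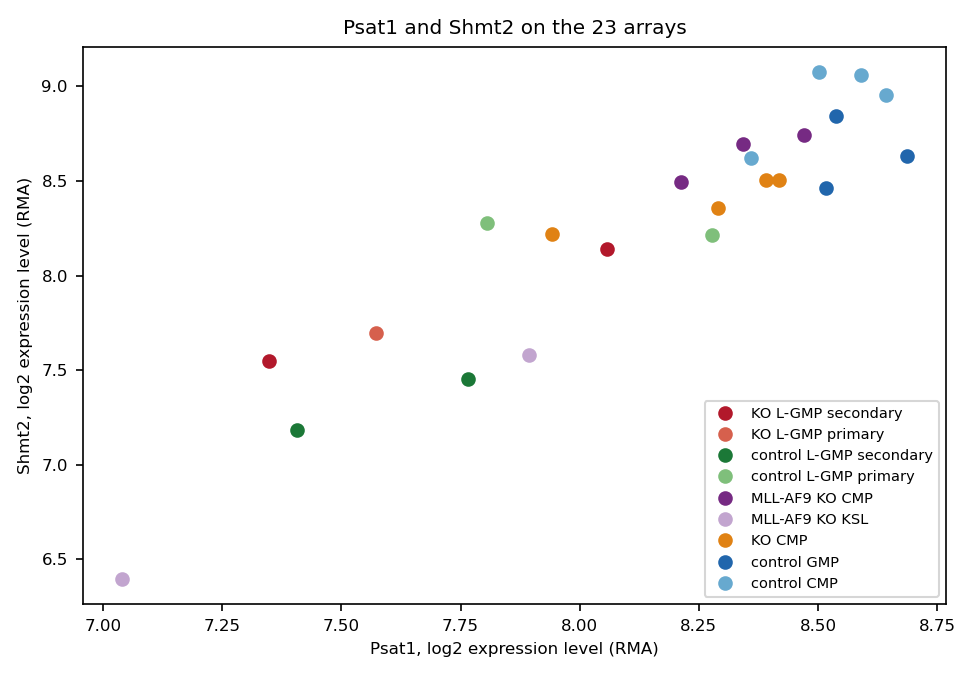
Log2 level of Psat1 (horizontal axis) against that of Shmt2 (vertical axis), 1 point per array, coloured by group. The 23 points follow a line with a correlation of 0.929, from a MLL-AF9 KO KSL array at 7.04 and 6.40 to the control CMP and GMP arrays at the upper right.

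With all arrays fitted, leukaemic and normal GMPs of control genotype differed in 6 of the 9 enzymes. Most of these calls depended on single arrays, as given below. In control L-GMPs 5 of the 9 fell and 1 rose relative to control GMPs by limma (Benjamini-Hochberg adjusted p under 0.05 over all genes), where 25.3% of all genes passed, 14.7% lower and 10.6% higher. Shmt2 read 7.45 and 7.18 in secondary and 8.22 and 8.28 in primary control L-GMPs, against 8.63, 8.84 and 8.46 in control GMPs. All leukaemic arrays lay below all normal ones, and the change was -0.87 ± 0.22 (log2, SE, adjusted p = 0.00974), a level 1.82-fold lower. Psat1 read 7.76 and 7.41 in secondary and 8.28 and 7.80 in primary L-GMPs, and fell by 0.77 ± 0.20 without overlap (adjusted p = 0.0123). Psph rose, by 0.60 ± 0.14 (adjusted p = 0.00596), at 8.01 and 8.10 in secondary and 7.39 and 6.85 in primary control L-GMPs, against 6.96, 6.93 and 7.06 in control GMPs. Its primary arrays lay on either side of the normal range and its secondary arrays above it.

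Phgdh, Mthfd1 and Mthfd2 also fell in control L-GMPs, by 0.55 ± 0.19, 1.09 ± 0.37 and 0.60 ± 0.21 (adjusted p = 0.0443, 0.0405 and 0.0463), each without overlap. Together with Aldh1l2, 6 of the 9 were lower on every leukaemic array, where 17.7% of all genes were. On the probe set shared by Phgdh and Gm6756, primary control L-GMPs (7.13 to 8.26) instead lay on both sides of control GMPs (7.40 to 7.53). Mthfd1 read 6.34 and 6.64 in secondary and 6.83 and 6.67 in primary L-GMPs, against 7.61, 7.73 and 7.78 in GMPs, the widest gap of the set. Of the remaining enzymes, Shmt1 changed by -0.25 (adjusted p = 0.284), Mthfd1l by -0.09 (adjusted p = 0.761) and Aldh1l2 by -0.21 (adjusted p = 0.127). The calls for Phgdh and Mthfd1 did not survive the loss of any 1 of the 7 arrays, with adjusted p of up to 0.118 and 0.107. Mthfd2 passed in 1 of those 7 fits, Psat1 missed without primary control L-GMP 2 (adjusted p = 0.0509), Shmt2 missed without GMP 2 (adjusted p = 0.0516), Shmt1 passed without primary control L-GMP 1 (change -0.47, adjusted p = 0.0138), and Psph passed in all 7. Phgdh and Mthfd2 also missed with array weights (adjusted p = 0.0607 and 0.114) and with arrays centred on their median (adjusted p = 0.0801 and 0.0646), Mthfd2 with the compared arrays alone (adjusted p = 0.0980), and Mthfd1 and Mthfd2 with secondary L-GMPs only (adjusted p = 0.0697 and 0.0689).

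Of the lists of genes around the pathway, purine synthesis, proliferation and ATF4 had a larger share of lower calls than all genes (14.7%). Folate genes had about the same share. Among 20 folate and glycine genes 3 were lower and 0 higher: Slc25a32, the mitochondrial folate carrier (-1.06), Tyms, thymidylate synthase (-0.84), and Mtrr, which reactivates methionine synthase (-0.62). Of 12 purine synthesis genes 6 were lower and 0 higher, led by Impdh1 (-1.43), Ppat (-0.93), Atic (-0.86) and Prps1 (-0.71). The proliferation list had 16 of 18 (88.9%) lower, with a median change of -0.84 against -0.02 over all genes, led by Rrm2 (-1.70), the ribonucleotide reductase subunit made in S phase. Its mean level was 8.13 in secondary and 8.33 in primary control L-GMPs, against 9.12 in control GMPs, and its part in the changes of the 9 enzymes was not tested. In the ATF4 list 6 of 27 (22.2%) were lower, among them Wars (-0.90), Aldh18a1 (-0.81) and Slc3a2 (-0.78), and 3 (11.1%, against 10.6% of all genes) were higher, among them Atf5 (0.74). In the methionine and transsulfuration list of 9, Srm was lower (-0.89) and Bhmt (1.04) and Cbs (0.56) were higher. Lineage markers moved as well. Mast cell, basophil and eosinophil markers were lower for 3 of 7 genes, with a median change of -2.60 and list means of 5.69 to 6.10 on the control L-GMP arrays, against 7.55 to 8.68 on the control GMP arrays. Lymphoid markers were higher for 4 of 8, with list means of 4.67 to 5.63, against 4.39 to 4.505. Of 8 monocyte markers 1 was higher and 2 lower, of 8 erythroid markers 1 was higher, of 5 megakaryocyte markers 1 was lower, and of 11 neutrophil markers 0 passed by limma (2 at an unadjusted p under 0.05). The part of these markers in the changes of the enzymes was not tested.

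Within the control leukaemias, the enzymes also differed between passages, a difference that was not tested here. In secondary control L-GMPs both arrays lay below both primary ones for Shmt2 (mean difference -0.93), Phgdh (-0.68), Psat1 (-0.45) and Mthfd1 (-0.26). Psph (0.94), Mthfd1l (0.74) and Aldh1l2 (0.09) were higher on both secondary arrays, and Shmt1 and Mthfd2 overlapped. With 2 arrays against 2, 41.5% of all genes were free of overlap, 22.6% lower and 18.9% higher.

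**Figure D3:**
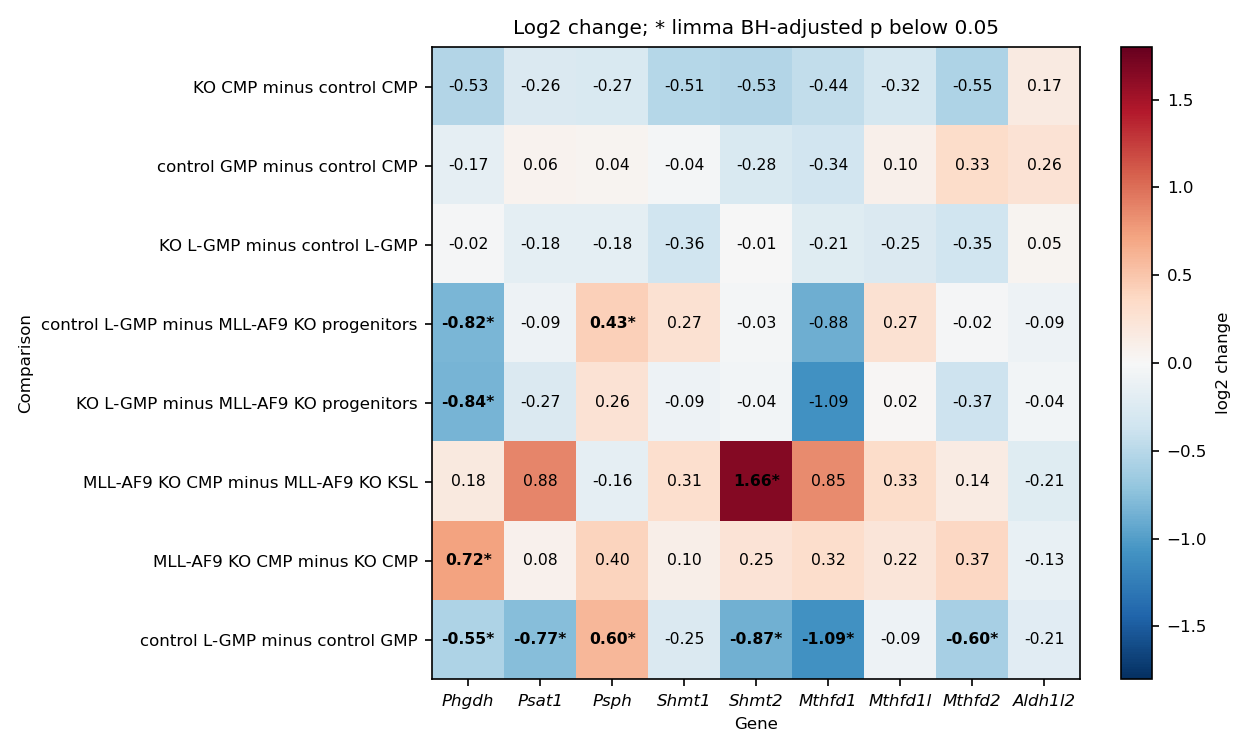
Log2 change of each enzyme (columns) in 8 comparisons (rows), coloured red for higher and blue for lower in the first-named group; a star marks a Benjamini-Hochberg adjusted p below 0.05 by limma. Control L-GMPs against GMPs carry 6 stars, and Phgdh has stars in 4 of the 8 rows.

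Phgdh was lower in control L-GMPs and in the L-GMPs of the 1 KO leukaemia than in MLL-AF9 KO progenitors without leukaemia. The KSLs and CMPs were given equal weight. Phgdh fell by 0.82 ± 0.17 in control L-GMPs (adjusted p = 0.00263) and by 0.84 ± 0.19 in KO L-GMPs (adjusted p = 0.00676), which share the progenitor arrays. Both KSL arrays come from mice that also gave a CMP array. Control L-GMPs differ from these progenitors in genotype as well as in leukaemia and sorted cell type. The primary recipient of the KO leukaemia was also given IL-3 and GM-CSF vectors. The parts of these cannot be told apart here. All 5 progenitor arrays, between 7.09 and 8.07, lay above the 4 control L-GMP arrays (6.18 to 6.99) and the 3 KO L-GMP arrays (6.55 to 6.66). On the probe set shared with Gm6756 this separation was absent, with primary control L-GMPs at 7.13 to 8.26 and MLL-AF9 KO CMPs at 6.96 to 8.18. In control L-GMPs 2 of the 9 enzymes passed, against 19.0% of all genes, and in KO L-GMPs 1 of 9, against 13.2%. Both are close to the background. The other call was Psph, which rose by 0.43 ± 0.12 in control L-GMPs (adjusted p = 0.0202) with overlapping arrays. Psph in KO L-GMPs changed by 0.26 (adjusted p = 0.262). Mthfd1 had larger changes, -0.88 in control and -1.09 in KO L-GMPs, that missed the threshold (adjusted p = 0.0711 and 0.0625). Shmt2 differed by -0.03 and -0.04, the L-GMP means lying between those of the high CMPs and the low KSLs.

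Against the MLL-AF9 KO CMPs alone, more of the enzymes were lower in the leukaemic cells: Psat1, Shmt2 and Mthfd1 then passed beside Phgdh in both genotypes. With Psph, which was higher (0.52, adjusted p = 0.0110), 5 of 9 passed in control L-GMPs, where 26.7% of all genes did, and 4 of 9 passed in KO L-GMPs, where 16.3% did. Shmt2 changed by -0.86 in control L-GMPs (adjusted p = 0.000672) and by -0.87 in KO L-GMPs (adjusted p = 0.00163), and Mthfd1 by -1.31 and -1.52 (adjusted p = 0.00131 and 0.00112). The Phgdh call held when any single array was left out (9 of 9 fits in control and 8 of 8 in KO L-GMPs), and missed when limma estimated the spread from the compared arrays alone (adjusted p = 0.129 and 0.258). With array weights the control L-GMP call missed too (adjusted p = 0.0644). Psph lost its call without primary control L-GMP 1, secondary control L-GMP 2 or KSL 2 (adjusted p = 0.0791, 0.0683 and 0.0814). Without KSL 1 the Mthfd1 changes grew to -1.40 and -1.61 and passed (adjusted p = 0.000778 and 0.000711). Single arrays also decided Shmt1 in control L-GMPs, which passed without primary control L-GMP 2 (0.49, adjusted p = 0.0112), and Mthfd1l, which passed without KSL 2 (0.46, adjusted p = 0.0310). In KO L-GMPs Mthfd1 also passed without secondary KO L-GMP 1 or MLL-AF9 KO CMP 3 (adjusted p = 0.0470 and 0.0493), and Mthfd1 and Mthfd2 both passed without the primary KO L-GMP (adjusted p = 0.0273 and 0.0448).

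Lineage markers moved in these comparisons as well. All 8 monocyte and macrophage markers were higher in the L-GMPs of both genotypes, with a list mean of 7.91 to 8.49 on the control L-GMP arrays and 8.15 to 8.28 on the KO L-GMP arrays, against 4.51 to 5.17 on the progenitor arrays. Of 8 erythroid markers 7 were lower in control and 6 in KO L-GMPs, and that list averaged 5.42 to 6.02 on the L-GMP arrays, against 6.71 to 8.91 on the progenitor arrays. Neutrophil markers were higher for 9 of 11 in control and 5 of 11 in KO L-GMPs, and megakaryocyte markers lower for 2 of 5 in each. None of these genes stood at the floor on all arrays of a group, and their part in the Phgdh difference was not tested. Over all genes 10.5% were lower and 8.51% higher in control L-GMPs, and 5.93% and 7.27% in KO L-GMPs. In the ATF4 list 6 of 27 genes fell and 1 rose in control L-GMPs, and 5 fell and 0 rose in KO L-GMPs. Among those lower were Aldh18a1 of proline synthesis (-1.22 and -1.38) and the amino acid transporter chain Slc3a2 (-1.29 and -0.83). Of 20 folate and glycine genes 4 fell and 1 rose in control, and 5 fell and 0 rose in KO L-GMPs. Of 12 purine synthesis genes 3 fell and 3 rose in control L-GMPs. Of 18 proliferation genes 0 fell, while 2 were higher in control and 3 in KO L-GMPs.

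Within MLL-AF9 KO cells that had not become leukaemic, Shmt2 was higher in CMPs than in KSLs. It read 8.49, 8.69 and 8.74 on the CMP arrays, against 6.40 and 7.58 on the KSL arrays. CMP and KSL arrays did not overlap, and Shmt2 rose by 1.66 ± 0.26 (adjusted p = 0.00361), a level 3.15-fold higher. It was the 1 of 9 enzymes to pass, where 3.32% of all genes did. Psat1 and Aldh1l2 also did not overlap, as was so for 19.4% of all genes. Aldh1l2 went the other way, lower in CMPs by 0.21 and not called (adjusted p = 0.322). Psat1 lay at 8.21, 8.34 and 8.47 in CMPs, against 7.04 and 7.89 in KSLs, with a change of 0.88 that missed (adjusted p = 0.0568). Phgdh, above both of them in the pathway, changed by 0.18 (adjusted p = 0.712) and Mthfd1 by 0.85 (adjusted p = 0.288).

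The size of the Shmt2 difference rests on 1 KSL array: it was 1.06 without KSL 1 (adjusted p = 0.0169) and 2.25 without KSL 2. The KSL arrays also differed in lineage markers. KSL 1 and KSL 2 had list means of 8.405 and 5.86 for mast cell, basophil and eosinophil markers, 6.71 and 8.56 for erythroid markers and 7.48 and 6.60 for the gate genes. Lymphoid markers averaged 4.37 to 5.41 on the CMP arrays, against 5.46 and 6.23 on the KSL arrays, with 0 of 8 called by limma and 6 at an unadjusted p under 0.05. Without KSL 2, Psat1 (1.30), Mthfd1 (1.89) and Mthfd1l (0.71) passed too (adjusted p = 0.00388, 0.00399 and 0.0369). With array weights (0.276 for both KSL arrays) or with the 5 arrays fitted alone it missed (adjusted p = 0.558 and 0.869), and those fits called 3 and 0 of all genes. In neighbouring lists Tyms (0.74), the purine enzymes Atic (1.06) and Ppat (0.83), and Srm (0.88) were higher in CMPs. So were Aldh18a1 (0.81) and Pck2 (0.60) of the ATF4 list, and Aurkb (0.87) and Mcm3 (0.60) among proliferation genes. Over all genes 2.02% were higher and 1.30% lower, so the 0 lower genes of these lists are close to the background. The proliferation list averaged 8.26, 8.56 and 8.28 on the CMP arrays, against 7.56 and 8.32 on the KSL arrays, and the part of these lists and of the lineage markers in the Shmt2 difference was not tested.

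Among CMPs without C/EBPa, Phgdh was higher in those carrying MLL-AF9. It read 8.07, 7.53 and 7.09 in MLL-AF9 KO CMPs, against 6.57, 6.59, 7.09 and 7.10 in untransduced KO CMPs, so the lowest MLL-AF9 array fell within the untransduced range. Phgdh rose by 0.72 ± 0.19 (adjusted p = 0.0390), the 1 of 9 enzymes to pass, where 4.88% of all genes did. The other 8 changed by -0.13 (Aldh1l2) to 0.40 (Psph, adjusted p = 0.114). The call depended on single arrays, missing without MLL-AF9 KO CMP 1 (change 0.47, adjusted p = 0.147), MLL-AF9 KO CMP 2 (adjusted p = 0.0727), KO CMP 1 (adjusted p = 0.113) or KO CMP 2 (adjusted p = 0.109). MLL-AF9 KO CMP 1, the array with the highest Phgdh, had a mean of 8.01 over the mast cell, basophil and eosinophil markers, against 5.58 and 5.40 on the other MLL-AF9 KO CMP arrays and 5.46 to 6.21 on the KO CMP arrays. KSL 1, taken from the same mouse, likewise had a mean of 8.405 and the higher Phgdh of the KSL arrays (7.62 against 7.15). MLL-AF9 KO CMP 3, the array with the lowest Phgdh of its group, had a megakaryocyte list mean of 9.48, against 6.4997 and 6.47 on the other MLL-AF9 KO CMP arrays and 7.01 to 7.91 on the KO CMP arrays. The part of these markers in the Phgdh difference was not tested. In the ATF4 list Slc7a5 (0.97), Ddit4 (0.82) and Slc7a1 (0.70) were higher and Atf4 itself was lower (-0.89). The folate importer gene Slc19a1 was higher (0.51), and 3 of 18 proliferation genes, Mki67, Bub1 and Top2a, were lower.

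Deletion of Cebpa in CMPs was accompanied by lower values for most of the enzymes, none of which passed by limma: 0 of 9 were called and 4 had an unadjusted p under 0.05, where 4.91% and 15.4% of all genes did. Shmt1 read 6.76, 6.79, 6.99 and 7.18 in KO CMPs, against 7.42, 7.33, 7.41 and 7.61 in control CMPs, a change of -0.51 ± 0.16 (adjusted p = 0.0768). Shmt2 read 8.22, 8.36, 8.51 and 8.51 in KO CMPs, against 8.62, 8.95, 9.07 and 9.06 in control CMPs, a change of -0.53 ± 0.20 (adjusted p = 0.174). Phgdh changed by -0.53 ± 0.18 (adjusted p = 0.111) and Mthfd2 by -0.55 ± 0.19 (adjusted p = 0.131). For these and Psph (-0.27, adjusted p = 0.330), 5 of the 9, every KO array lay below every control array, where 11.3% of all genes did so. The median change of the 9 was -0.44, against 0 over all genes, and 8 of 9 changes were below 0, Aldh1l2 being the exception (0.17).

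Whether these differences passed depended on how the spread was estimated. The 23-array fit shares its spread with the scattered MLL-AF9 groups, whose array weights were 0.260 to 0.542 in CMPs and 0.276 in KSLs, against 1.72 to 2.92 in KO CMPs and 1.65 to 2.30 in control CMPs. With array weights 5 of 9 passed (Phgdh, Psph, Shmt1, Shmt2 and Mthfd2, adjusted p = 0.00892, 0.0322, 0.00167, 0.0107 and 0.0262), where 18.9% of all genes did. With the 8 CMP arrays fitted alone 3 of 9 passed (Phgdh, Shmt1 and Shmt2, adjusted p = 0.0439, 0.0187 and 0.0222), where 16.2% of all genes did. KO CMP arrays 1 and 2 both lay below arrays 3 and 4 for 8 of the 9 enzymes, a split noticed in these values that 17.7% of all genes shared.

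**Figure D4:**
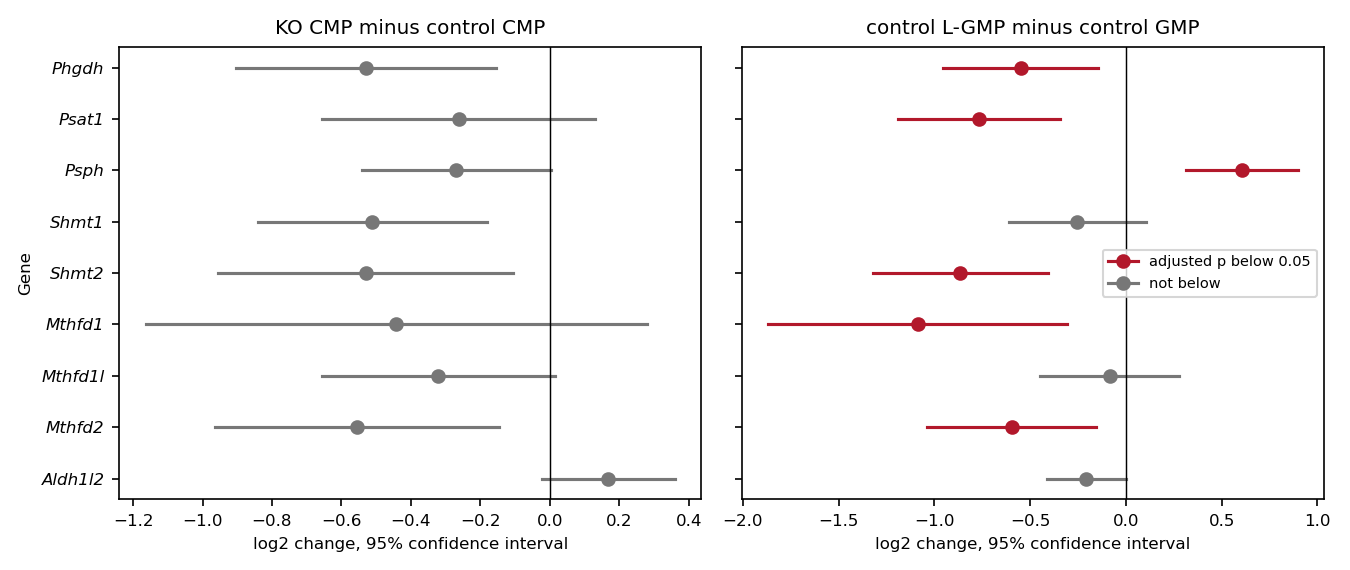
Log2 change (points) with its 95% confidence interval (lines) for each enzyme in KO CMPs against control CMPs (left) and control L-GMPs against control GMPs (right); red marks an adjusted p below 0.05. In KO CMPs 8 of 9 points lie below 0 and none is red; in L-GMPs 6 are red, with Psph alone above 0.

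Few other genes of the pathway passed in KO CMPs, and the shares of the folate (5.00%), methionine (11.1%), purine (16.7%) and ATF4 (11.1%) lists, set against 4.91% of all genes, rest on 1 to 3 genes each. Those lower were Slc19a1 (-0.42), 1 of 20 folate and glycine genes, the purine genes Adssl1 (-1.07) and Gart (-0.59), 2 of 12, and the spermidine synthase gene Srm (-0.89), 1 of 9 in the methionine list. In the ATF4 list Ddit3 (0.78) and Atf4 (0.62) rose and the transporter gene Slc7a1 fell (-0.64), and 24 of 27 did not pass. Whether the change of Atf4 bears on the 9 enzymes was not tested. The proliferation list had 3 of 18 lower, Tk1 (-0.51), Aurkb (-0.50) and Aurka (-0.43), with list means of 8.53, 8.79, 8.85 and 8.84 on the KO arrays, against 8.97 to 9.07 on the control arrays. Monocyte markers were lower for 7 of 8 genes, with a list mean of 4.65 to 5.37 on the KO arrays, against 7.64 to 8.24 on the control arrays, and neutrophil markers for 3 of 11. Mast cell, basophil and eosinophil markers were lower for 2 of 7, with a median change of -1.40 and list means of 5.46 to 6.21 on the KO arrays, against 6.84 to 7.86 on the control arrays. The part of these in the enzymes' values was not tested.

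KO and control L-GMPs did not differ in a called enzyme. The KO L-GMP arrays stand for 1 leukaemia, whose primary recipient had been given vectors expressing IL-3 and GM-CSF. Genotype, that leukaemia and those vectors cannot be told apart here, nor in the difference of knockout effects below. By limma 0 of 9 passed and 0 had an unadjusted p under 0.05, where 3.27% and 19.2% of all genes did, and 0 of 9 were free of overlap, where 13.9% of all genes were. Shmt2 changed by -0.01, with a 95% confidence interval of -0.48 to 0.46, and Phgdh by -0.02, with an interval of -0.43 to 0.40. Shmt1 read 6.73 and 6.43 in secondary and 6.995 in primary KO L-GMPs, against 7.24 and 7.16 in secondary and 7.53 and 6.65 in primary control L-GMPs, a change of -0.36 (adjusted p = 0.275). It passed without primary control L-GMP 2 (-0.58, adjusted p = 0.0330). With the secondary L-GMPs alone, Psph (-0.65, adjusted p = 0.0279) and Shmt1 (-0.62, adjusted p = 0.0377) passed, where 4.54% of all genes did. The effect of the knockout did not differ by a called amount between L-GMPs and CMPs for any of the 9 (0 called and 0 at an unadjusted p under 0.05 by limma, where 2.80% and 16.3% of all genes did). The difference was 0.51 for Phgdh (95% interval -0.05 to 1.07) and 0.52 for Shmt2 (-0.12 to 1.16). In the 9-gene methionine list Srm (-0.86) and Cbs (-0.72) were lower in KO L-GMPs, and in the folate, purine, ATF4 and proliferation lists 0 genes passed, with 4, 0, 5 and 2 at an unadjusted p under 0.05.

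Control GMPs and control CMPs, the normal neighbours in differentiation, also gave 0 of 9 called enzymes by limma, with 1 at an unadjusted p under 0.05, where 1.05% and 7.87% of all genes passed. Phgdh read 7.18, 7.22 and 7.20 in GMPs, just under all control CMP arrays (7.29 to 7.48), with a change of -0.17 (adjusted p = 1). Aldh1l2 was higher on all 3 GMP arrays, at 4.03, 4.13 and 4.18 against 3.66 to 4.00, a change of 0.26 (adjusted p = 0.419), and 16.3% of all genes were likewise free of overlap. The largest changes of the set were -0.34 for Mthfd1, with a 95% interval of -1.12 to 0.44, and 0.33 for Mthfd2, with one of -0.11 to 0.77. The folate, methionine, purine, ATF4 and proliferation lists each had 0 called genes here by limma, with 1, 0, 1, 1 and 1 at an unadjusted p under 0.05.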

How the data were processed

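The deposited series table holds log2 expression values of 34760 probe sets on 23 arrays, made by the authors with RMA per the submitters' processing notes; no source used here gives the version. RNA was amplified with the NuGen Ovation Pico WTA kit, per the labels' protocols. RMA subtracts background, equalises array distributions and summarises probes, which compresses changes of dim genes. The platform annotation gave 1 symbol to 21640 probe sets, several to 1321 and none to 11799; the probe set of highest mean represented each of 19937 genes. All 23 arrays entered 1 linear model of group means in limma 3.58.1 (R 4.3.3), moderated by empirical Bayes with a trended prior, and p-values were adjusted over all genes by Benjamini-Hochberg; a change counted at an adjusted p under 0.05. Changes are the first-named group minus the second, on the log2 scale, and folds are 2 to that power. The fit was tested on simulated data. The highest correlation between 2 of the 253 pairs of arrays was 0.991 and 0 pairs were identical, so each array counted as 1 sample.

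Members and lists were chosen with earlier results of these data known. All 9 members are named in each comparison or by range. List genes named in the text are from the up to 4 called genes of a list with the greatest change. Some lists are given as counts alone or are left out of a comparison. The lists are folate and glycine genes, methionine cycle and transsulfuration, purine synthesis, ATF4 amino acid response, proliferation, and cell type markers. Samples numbered alike pair in the MLL-AF9 KO CMPs and KSLs, which come from the same mice (correlation of deviations 0.450 and 0.260). Alternatives tried were array weights, no trend, the compared arrays alone, a filter on dim genes (a group mean of at least 5), the mean of all probe sets, median centring, a replicate block, the mouse as a random block, secondary L-GMPs only, CMPs only as progenitors, and each array left out. Scan dates were not used here, so no batch was tested.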

Additional observations from a re-analysis of the deposited data

Results flagged for a closer look

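Mthfd1 on KO CMP array 1 stood apart from the other KO CMP arrays, at 7.25 against 7.70, 7.71 and 7.76, and the gap to its nearest neighbour took up 0.880 of the range of that group. Groups of 4 samples were tested for each enzyme, 18 in all, and 1 was marked; chance marks about 1 in 20 such groups. Without this array the Mthfd1 change in KO CMPs against control CMPs was smaller and still without a call by limma (adjusted p = 0.946).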

How the results depend on the processing

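Leaving out 1 array at a time gave 0 to 0 called enzymes in KO against control CMPs, in GMPs against CMPs and in the difference of knockout effects, and 0 to 1 in KO against control L-GMPs. It gave 1 to 3 in control and in KO L-GMPs against MLL-AF9 KO progenitors, 1 to 4 in MLL-AF9 KO CMPs against KSLs, 0 to 1 in MLL-AF9 KO CMPs against KO CMPs and 2 to 4 in control L-GMPs against GMPs. With array weights the counts were 5 in KO against control CMPs and 0 in control L-GMPs against progenitors, in MLL-AF9 KO CMPs against KSLs and against KO CMPs. With the compared arrays alone they were 3 in KO against control CMPs and 0 in both L-GMP genotypes against progenitors and in MLL-AF9 KO CMPs against KSLs and against KO CMPs. The filter on dim genes removes Aldh1l2 and refits the other genes. It gave 2 in KO L-GMPs against progenitors and 2 in MLL-AF9 KO CMPs against KSLs. The mouse as a random block also gave 2 in the last comparison, where Psat1 passed. With secondary L-GMPs only, 2 were called in KO against control L-GMPs and 3 in KO L-GMPs against progenitors. With CMPs only as progenitors, 5 were called in control and 4 in KO L-GMPs. For these changes of count, the cause was not tested. With the replicate block 3 enzymes remained called in control L-GMPs against GMPs (Phgdh, Mthfd1 and Mthfd2 had adjusted p = 0.114, 0.120 and 0.127) and 0 in MLL-AF9 KO CMPs against KO CMPs, while Mthfd1 was added in control L-GMPs against progenitors (adjusted p = 0.0275). In those comparisons the samples share only a number, with correlations of deviations between -0.205 and 0.180 over all groups not taken from the same mice. In MLL-AF9 KO CMPs against KSLs, where the mice pair the samples, the block changed no call (Shmt2 1.61, adjusted p = 0.00439), and it changed no other count of calls. The other counts stayed within 1.5 times, among them 4 in control L-GMPs against GMPs with array weights, with median centring and with secondary L-GMPs only, where Phgdh, Mthfd1 or Mthfd2 lost their calls, and no call reversed. Precision is set by 1 to 4 arrays a group, and Aldh1l2 lies near the floor.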
